A study of Homo sapiens with 5 samples.

Results

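Expression of 10 genes of the BCL2 family, the proteins that decide whether the outer mitochondrial membrane is opened during apoptosis, was described across a mixture series of RNA from 2 lung adenocarcinoma lines. The genes were chosen by name: the guards BCL2L1, MCL1 and BCL2L2, the effectors BAX and BAK1, and the BH3-only genes BCL2L11, BID, BBC3, PMAIP1 and BAD. They are 10 of the 61220 human genes with a listed transcript, and of the 13492 genes with enough reads to be tested. GENCODE v44 assigns 76 listed transcripts to them, of which 42 had at least 1 read, out of 227751 human transcripts in all.

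The study sequenced cDNA on a nanopore PromethION flow cell from NCI-H1975 RNA carrying sequin mix A, HCC827 RNA carrying sequin mix B, and 3 mixtures of these. Both are established cell lines, grown separately, with no drug treatment named in the labels, and sequins are synthetic spike-in RNAs. HCC827 RNA made up 0, 25, 50, 75 or 100% of the mass, with 1 library each, named here by mass ratio with NCI-H1975 first (100:0 is pure NCI-H1975 and 0:100 pure HCC827). Each line contributed 1 RNA preparation, shared by every library that contains it, so p-values do not measure the spread between cultures. The fits of expression take its logarithm as a straight line in the HCC827 fraction, whereas a mixture is linear in expression itself. Their p-values thus hold the spread between libraries together with the bend of a mixture on the log scale. The part of that bend in the p-values and in the share of all genes that passed was not tested.

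Proteins of the BCL2 family hold one another in check through a short helix called the BH3 domain. Guards bind and restrain BAX and BAK1, which otherwise assemble into pores that release cytochrome c, and BH3-only proteins either occupy the guards or activate the effectors directly. Several of these genes also make proteins of opposite or graded activity by alternative splicing. In lung adenocarcinoma lines with EGFR mutations the family is known for its part in cell death under EGFR inhibitors, in which BIM, the product of BCL2L11, is a main mediator.

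Total reads per library, sequins included, ran from 2932250 to 4058751. The 10 genes together held 1763, 2183, 2015, 1586 and 1421 reads, where values for 5 libraries are given here and throughout from pure NCI-H1975 to pure HCC827. Each of the 6 epithelial markers had at least 317 reads in every library, and the leukocyte markers PTPRC and CD3E had 0 reads in all 5 libraries. The 8 markers of other cell types summed to 189 CPM (reads scaled to a common library size) in the 100:0 library and 8.18 in the 0:100 library. Of these 8, 5 stayed under 10 reads in every library, and the sum was mostly COL1A1 and COL1A2, collagen genes used here as fibroblast markers, with 532 and 96 reads in the 100:0 library and 19 and 0 in the 0:100 library. Their part in the results was not tested. The mean length of the transcripts to which reads were assigned, sequins included, ran in order from 2579 bases in the 100:0 library to 2180 bases in the 0:100 library. Among all tested genes, the median slope (the fitted log2 change from 0 to 100% HCC827) was 0.39 for genes under 1000 bases and -0.30 for genes of 4500 bases or more.

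The paired coding forms of MCL1, BCL2L1, BCL2L11, BAX and BAK1 differ in coding sequence by the segments shown here. Several paired transcripts also differ at their ends, so the assignment of reads need not rest on the segments. All segments are given 5′ to 3′ on the gene's strand, read from GRCh38 with GENCODE v44 models. In MCL1, the form with 591 coding bases lacks 459 bases of the first exon (chr1:150578964-150579422, minus strand, 153 codons, 70.2% G and C) that the full-length form of 1050 coding bases keeps, as annotated. The first pair of lines shows the start and the end of that segment at chr1:150579393-150579452 and chr1:150578934-150578993, with the segment in capitals and the flanking exon bases in lower case. It opens with GC and closes with AG.
MCL1 start of segment: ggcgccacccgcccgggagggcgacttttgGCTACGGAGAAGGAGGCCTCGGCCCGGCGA
MCL1 end of segment: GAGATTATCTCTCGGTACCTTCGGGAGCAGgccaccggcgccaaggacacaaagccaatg

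In BCL2L1, Bcl-xL (699 coding bases) keeps 189 bases at the end of an exon that Bcl-xS (510 coding bases) lacks, at chr20:31721655-31721843 on the minus strand, 63 codons in all. The capitals mark the GT at which Bcl-xS is joined instead. In BCL2L11, BIM-EL (594 coding bases) keeps 180 bases, 60 codons, at chr2:111123870-111124049 on the plus strand, which BIM-L (414 coding bases) lacks. The capitals mark its GT start and AG end.
BCL2L1 segment: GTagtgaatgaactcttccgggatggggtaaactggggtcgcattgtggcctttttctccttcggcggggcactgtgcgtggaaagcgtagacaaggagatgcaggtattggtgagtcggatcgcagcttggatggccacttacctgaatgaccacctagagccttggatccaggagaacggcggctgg
BCL2L11 segment: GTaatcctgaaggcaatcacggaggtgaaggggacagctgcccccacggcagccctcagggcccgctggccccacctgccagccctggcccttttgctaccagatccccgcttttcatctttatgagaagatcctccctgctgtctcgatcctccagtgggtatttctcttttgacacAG

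In BAX, the form with 654 coding bases (BAX-beta) retains the last intron, 617 bases at chr19:48960915-48961531 on the plus strand, and its reading frame ends inside it. The line for BAX covers chr19:48960885-48960944, with retained bases in capitals. In BAK1, the form with 459 coding bases holds an extra exon of 20 bases at chr6:33574506-33574525 on the minus strand, shown in capitals with 10 intron bases on each side (chr6:33574496-33574535). A BAK1 form with such an exon is known as N-BAK and was described in neurons.
BAX segment start: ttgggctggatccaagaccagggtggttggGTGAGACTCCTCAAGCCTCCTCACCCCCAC
BAK1 exon: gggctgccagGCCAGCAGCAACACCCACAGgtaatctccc

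**Figure D1:**
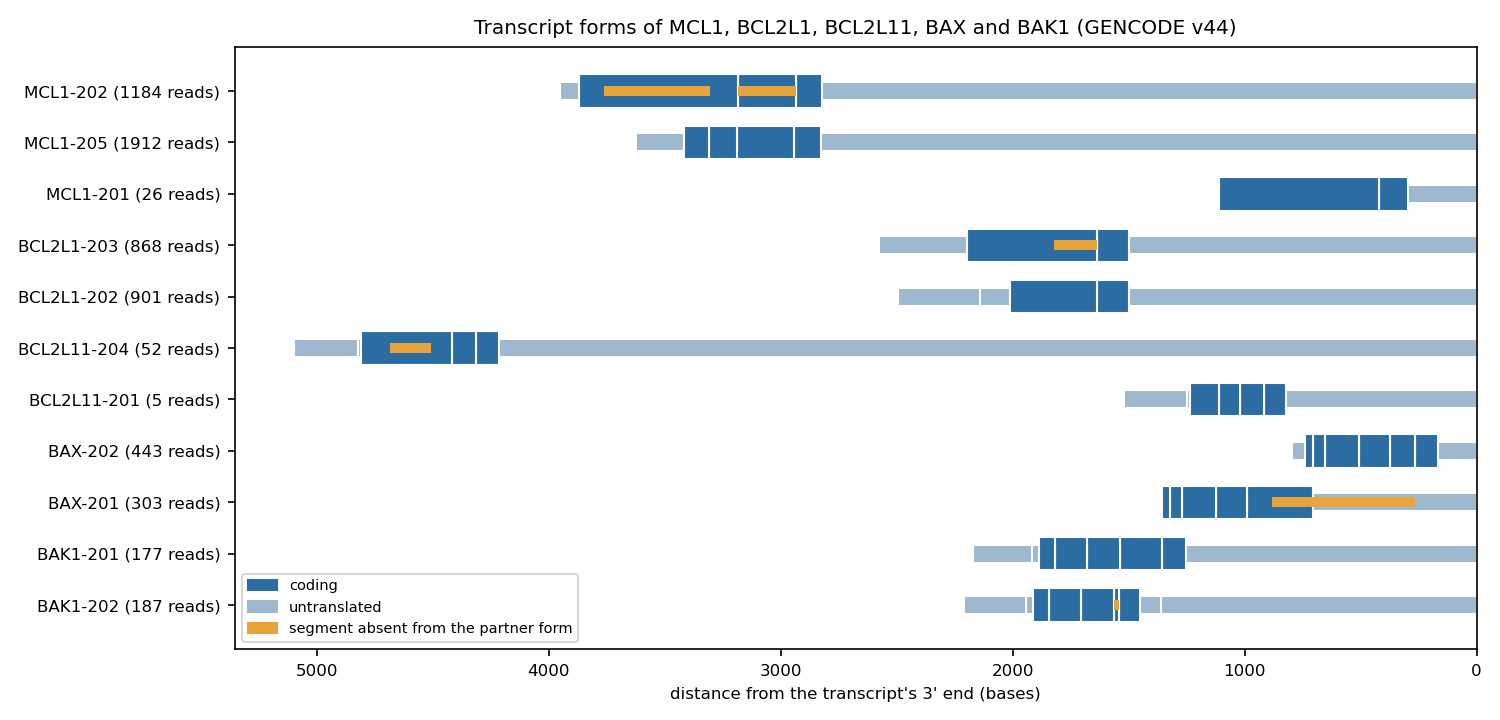
Transcript forms that share the reads of 5 members, drawn from the 3′ end (distance in bases on the x axis), with coding parts dark, untranslated parts light, exon borders white and the segment absent from the partner form in orange; the number after each name is its reads over the 5 libraries. The MCL1 and BCL2L11 segments lie 3303 and 4506 bases from the 3′ end, the BCL2L1 segment 1635 and the BAX segment 267.

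Of the 10 members, 2 rose with the HCC827 fraction (BAK1 and BAD), 2 fell (MCL1 and BID) and 6 did not pass the edgeR quasi-likelihood test at an adjusted p under 0.05, where p-values were adjusted over all 13492 genes. The share that passed, 40%, stood beside 46.2% of all tested genes in either direction, of which 23.7% rose and 22.5% fell. It was thus near the background. The median slope of the members was 0.41, with a range from -1.51 to 0.75, and that of all tested genes was -0.03.

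The summed level of the 10 members was 519, 506, 517, 554 and 528 CPM, with the 25:75 library highest and the 75:25 library lowest. Guards summed to 332, 312, 318, 328 and 304 CPM from the 100:0 to the 0:100 library, effectors to 56.0, 62.5, 56.7, 80.7 and 77.0 CPM, and BH3-only genes to 131, 131, 142, 145 and 148 CPM. These sums were dominated by MCL1 and BCL2L1 among the guards. In the 100:0 library, MCL1 had the highest level of the 10 at 205 CPM, followed by BCL2L1 at 105 and PMAIP1 at 62.7. Next came BAD at 42.7, BAX at 37.4, BCL2L2 at 22.1, BAK1 at 18.6, BID at 14.4 and BBC3 at 8.54. BCL2L11 was lowest at 2.65 CPM.

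CPM values are scaled by trimmed mean of M-values (TMM) and carry 95% exact Poisson intervals in the plot of member levels, which cover counting error only, since PCR copies were counted as reads. In none of the 10 members did the 5 libraries run in strict order of the mixing ratio. Between libraries next to each other in level, 0 of 40 pairs had intervals that did not overlap. The highest and the lowest library had separate intervals in 7 of 10 members, the exceptions being BCL2L1, BCL2L11 and PMAIP1. That pair was picked in each member for its levels, which favours separate intervals. No such counts were made over all genes, so they describe the plot and are not a trait of the family. In these bulk RNAs, fewer cells expressing a gene and less RNA per cell cannot be told apart.

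**Figure D2:**
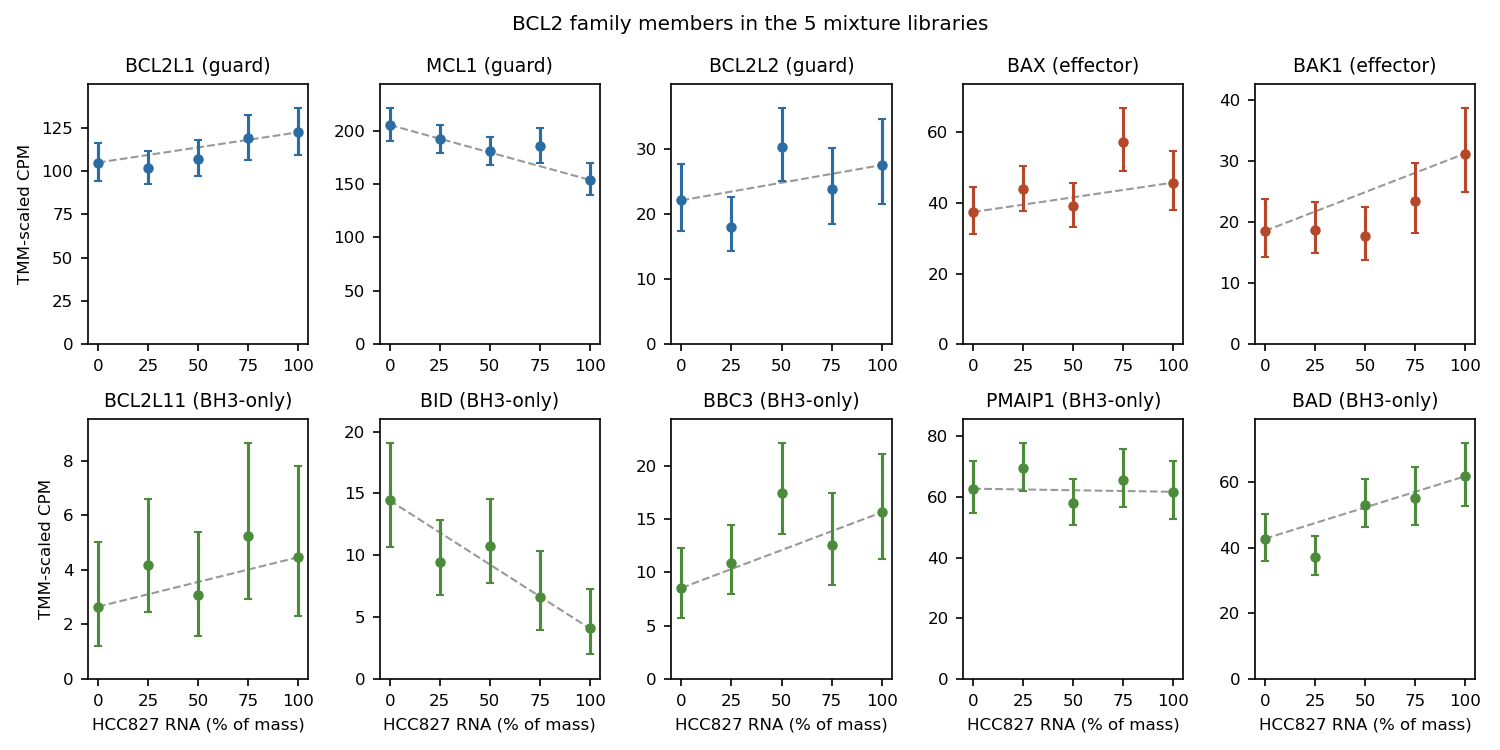
Level of each member in TMM-scaled CPM (y axis, linear from 0) against the HCC827 share of RNA mass in percent (x axis), 1 library per point, with 95% exact Poisson intervals of the counts and a dashed line joining the pure libraries. BID falls from 14.4 to 4.09 CPM while PMAIP1 stays between 58.0 and 69.5, and the intervals of libraries next to each other in level overlap in every panel.

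MCL1 encodes a short-lived guard that restrains BAK1 and binds BIM and NOXA (ENSG00000143384.14, chr1:150560895-150579738, minus strand). Its level was 205, 192, 181, 186 and 154 CPM from the 100:0 to the 0:100 library, from 697, 829, 704, 531 and 414 reads. The pure NCI-H1975 library was highest and the pure HCC827 library lowest, and their intervals did not overlap. MCL1 fell by 0.35 ± 0.12 (SE) on the log2 scale (edgeR quasi-likelihood adjusted p = 0.0190), and the pure libraries differed 1.33-fold (95% interval 1.18 to 1.51). Its mean transcript length of 3684 bases put it among genes of 3000 to 4500 bases, whose median slope was -0.13. With the trend on transcript length removed from each library, its edgeR quasi-likelihood slope was -0.20 (adjusted p = 0.225).

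BCL2L1, whose main product Bcl-xL restrains BAX and BAK1, lies at chr20:31664452-31723989 on the minus strand (ENSG00000171552.14). Its level was 105, 102, 107, 119 and 122 CPM, from 329 to 439 reads a library. The 2 libraries richest in HCC827 had the highest values, but all 5 intervals overlapped. The slope was 0.27 ± 0.13 (edgeR quasi-likelihood adjusted p = 0.0891, unadjusted p = 0.0470), and the pure libraries stood at a ratio of 1.17 (1.00 to 1.36). With library totals in place of TMM the slope was -0.14 (edgeR quasi-likelihood adjusted p = 0.372). ABALON, which spans the segment between Bcl-xL and Bcl-xS on the opposite strand (chr20:31721507-31723409), had 5 to 14 reads a library.

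BCL2L2 encodes the guard Bcl-w (ENSG00000129473.11, chr14:23298790-23311751, plus strand). Its level was 22.1, 18.1, 30.3, 23.8 and 27.5 CPM, from 68 to 118 reads. The 50:50 library was highest and the 75:25 library lowest, so the extremes lay inside the series and not at its ends. The slope of 0.42 ± 0.27 did not pass (edgeR quasi-likelihood adjusted p = 0.212). The readthrough gene BCL2L2-PABPN1, which joins exons of BCL2L2 to the next gene on the same strand, held 152, 172, 177, 129 and 141 reads, more than BCL2L2 itself in each library. With its reads added, the slope was 0.31 (edgeR quasi-likelihood adjusted p = 0.120). HOMEZ, which overlaps BCL2L2 on the opposite strand, had 98 to 150 reads a library and rose by 0.86 ± 0.19 (edgeR quasi-likelihood adjusted p = 0.00084).

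BAK1 encodes the effector that sits in the mitochondrial membrane (ENSG00000030110.14, chr6:33572547-33580293, minus strand). Its level was 18.6, 18.8, 17.7, 23.4 and 31.2 CPM, from 63, 81, 69, 67 and 84 reads. The 3 libraries poorest in HCC827 had similar values, and the pure HCC827 library was highest, with an interval that overlapped only that of the 25:75 library. BAK1 rose by 0.75 ± 0.26 (edgeR quasi-likelihood adjusted p = 0.0224), and the level in pure HCC827 was 1.68 times that in pure NCI-H1975 (1.20 to 2.37). With library totals in place of TMM the slope was 0.35 (edgeR quasi-likelihood adjusted p = 0.276), and by the DESeq2 Wald test it was 0.76 (adjusted p = 0.102).

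BAX encodes the effector that moves from the cytosol to mitochondria (ENSG00000087088.21, chr19:48954815-48961798, plus strand). Its level was 37.4, 43.8, 39.0, 57.3 and 45.7 CPM, from 123 to 189 reads. The highest value stood in the 25:75 library and not at an end of the series. The slope of 0.40 ± 0.21 did not pass (edgeR quasi-likelihood adjusted p = 0.120), and with library totals in place of TMM it was -0.0098 (adjusted p = 0.973). The pure libraries stood at a ratio of 1.22 (0.946 to 1.58).

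BID links death receptors to mitochondria, because caspase-8 cuts its product into an active fragment (ENSG00000015475.19, chr22:17734138-17774770, minus strand). Its level was 14.4, 9.50, 10.8, 6.64 and 4.09 CPM, from 49, 41, 42, 19 and 11 reads. The pure NCI-H1975 library was highest and the 2 libraries richest in HCC827 were lowest, with separate intervals at the ends. BID fell by 1.51 ± 0.41 on the log2 scale (edgeR quasi-likelihood adjusted p = 0.00427), the largest slope in size among the members, and its level was 3.53-fold lower in pure HCC827 (1.81 to 7.53). The 3 other genes of at least 100 reads whose log2 CPM over the 5 libraries was most like that of BID were RELL1, ITGA6 and PRR14L, with Pearson correlations of 0.9999, 0.9998 and 0.9996. Of 11007 genes compared, 927 correlated with BID above 0.95, and all points share the same 5 libraries, so this describes the series and not a link between genes.

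BAD, whose product binds Bcl-xL and is held inactive by survival kinases, lies at chr11:64269830-64284704 on the minus strand (ENSG00000002330.14). Its level was 42.7, 37.3, 53.1, 55.2 and 61.7 CPM, from 145, 161, 207, 158 and 166 reads. The 3 libraries with 50% or more HCC827 were all above the other 2. BAD rose by 0.66 ± 0.19 (edgeR quasi-likelihood adjusted p = 0.00616), with a ratio of 1.45 (1.15 to 1.82) between the pure libraries. It is short, with a mean length of 1115 bases, and genes of 1000 to 2000 bases had a median slope of 0.19. With the length trend removed its slope was 0.48 (edgeR quasi-likelihood adjusted p = 0.0509), and with library totals in place of TMM it was 0.25 (adjusted p = 0.276). GPR137, on the opposite strand and overlapping exons of BAD, had 25 to 40 reads a library.

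BBC3 encodes PUMA, a BH3-only protein that binds every guard (ENSG00000105327.18, chr19:47220822-47232766, minus strand). Its level was 8.54, 10.9, 17.5, 12.6 and 15.6 CPM, from 29, 47, 68, 36 and 42 reads. The 50:50 library was highest and the pure NCI-H1975 library lowest, with separate intervals. The slope of 0.75 ± 0.36 was similar in size to that of BAK1 but did not pass (edgeR quasi-likelihood adjusted p = 0.0872), and the ratio of the pure libraries was 1.83 (1.11 to 3.04). Over protein-coding transcripts alone the slope of BBC3 was 0.325 (edgeR quasi-likelihood adjusted p = 0.548), against 0.743 for BAK1 (adjusted p = 0.0230).

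PMAIP1 encodes NOXA, which binds MCL1 (ENSG00000141682.12, chr18:59899996-59904305, plus strand). Its level was 62.7, 69.5, 58.0, 65.7 and 61.7 CPM, from 166 to 300 reads. The pure libraries were almost level, at a ratio of 0.984 (0.798 to 1.21), and the slope was -0.06 ± 0.16 (edgeR quasi-likelihood adjusted p = 0.787). Without the 75:25 library its sign turned, to 0.0059 (adjusted p = 0.981), and with library totals in place of TMM the slope was -0.47 (edgeR quasi-likelihood adjusted p = 0.0182).

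BCL2L11 encodes BIM, which binds every guard (ENSG00000153094.25, chr2:111119378-111168444, plus strand). Its level was 2.65, 4.17, 3.08, 5.24 and 4.46 CPM, from 9, 18, 12, 15 and 12 reads, so each value rests on few molecules. All 5 intervals overlapped. The slope was 0.68 ± 0.62 (edgeR quasi-likelihood adjusted p = 0.385), and the ratio of the pure libraries, 1.68 with an interval from 0.651 to 4.52, did not resolve a difference at this depth. MIR4435-2HG, which spans the locus on the opposite strand, had 484 to 715 reads a library, and use of strand in counting is not given in the sources used here.

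Read depth differed widely between members, from 66 reads over all libraries for BCL2L11 to 3175 for MCL1. Among all tested genes, 28.4% of those with 20 to 100 reads in total passed the edgeR quasi-likelihood test, against 66.9% of those with 1000 to 5000 reads, and the median SE of the slope was 0.68 and 0.14. MCL1 and BCL2L1 are in the deeper class, and BCL2L11 is in the shallow one.

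None of the 4 calls held without the pure HCC827 library. Over the remaining 4 libraries, 0 of 10 members passed the edgeR quasi-likelihood test, beside 31.7% of all genes. With every library included, 46.2% of all genes had passed. The slopes were then -0.21 for MCL1 (adjusted p = 0.275), 0.37 for BAK1 (0.473), -1.21 for BID (0.0763) and 0.66 for BAD (0.0607). Without the pure NCI-H1975 library 3 members passed, beside 36.4% of all genes, and MCL1 did not (slope -0.35, adjusted p = 0.0858). Without the 75:25 library 3 passed, beside 40.7% of all genes, and BAK1 did not (slope 0.74, adjusted p = 0.0567).

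A mixture is linear in expression, so the pure libraries predict the counts of a gene in the 3 inner libraries. Of 30 such predictions for the members, 23 lay inside the 95% Poisson interval of the observed count and 7 outside, 4 with more reads than predicted and 3 with fewer. BCL2L2 was below its prediction in the 75:25 library, with 78 reads against 101, and above it in the 50:50 library, with 118 against 96.7. BAD had 161 reads against 205 in the 75:25 library, and BAK1 had 69 against 97.0 in the 50:50 library. On the other side, BBC3 had 68 against 47.1 in the 50:50 library, MCL1 had 531 against 477 and BAX 164 against 125 in the 25:75 library. The interval leaves out the counting error of the pure libraries that make the prediction. The HCC827 share of reads was also estimated from genes with at least 50 reads over the pure libraries (32.7, 55.4 and 78.2% for masses of 25, 50 and 75%). With these shares, 24 of 30 lay inside.

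The forms of MCL1 stood in nearly the same proportion in all 5 libraries. Full-length MCL1 (MCL1-202, 350 codons) restrains cell death, whereas the form without exon 2 (MCL1-201, 271 codons, MCL1-S) promotes it. Of reads on MCL1 transcripts with an annotated coding sequence, the form with 591 coding bases (MCL1-205, 197 codons) took 60.9% (95% Wilson interval 57.2 to 64.5), 61.4%, 62.4%, 60.0% and 61.0%, of 681, 816, 692, 523 and 410 reads. The full-length form took 38.6, 37.7, 37.1, 38.2 and 38.0%. MCL1-205 and MCL1-202 also differ at their ends, with last exons of 2941 and 2934 bases. MCL1-S had 3, 7, 3, 9 and 4 reads, or 0.833% over all libraries, but its annotated model ends early, 1110 bases in all against 3950 for MCL1-202, and exon 2 lies 2934 bases from the 3′ end of MCL1-202. Shares of the 591-base form spanned less than the Wilson interval of a single library. Its slope was -0.51 percentage points from 0 to 100% HCC827 (two-sided exact permutation p = 0.767 over 120 orders of the libraries, 0.867 adjusted over 3 genes).

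BCL2L1 reads were assigned about evenly to Bcl-xS, which promotes death, and Bcl-xL, which restrains it. Bcl-xS took 50.0% (44.8 to 55.2), 47.6%, 45.3%, 52.9% and 45.9% of 356, 439, 417, 340 and 329 reads, and 48.2% over all libraries. The intervals of the 5 libraries overlapped, and neither pure library was an extreme. The slope was -1.15 percentage points (two-sided exact permutation p = 0.817, 0.867 adjusted over 3 genes), where 120 orders allow no p below 0.0167. The Bcl-xS transcript with nearly all these reads, BCL2L1-202, also differs from BCL2L1-203 in its 5′ untranslated exons, and its deposited length of 2383 bases differs from 2496 in GENCODE v44. The 2 leading transcripts of BCL2L1 stood at a ratio of 1.04, and over 7455 genes with 2 or more tested transcripts that ratio had a median of 1.27 and was under 2 in 72.6%. A ratio under 2 was thus common among these genes, from which genes with only 1 transcript of enough reads were left out.

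For BCL2L11, BIM-EL (BCL2L11-204, 198 codons) took 6 of 9, 15 of 18, 11 of 12, 11 of 15 and 9 of 12 reads, 78.8% of 66 over all libraries. BIM-L (BCL2L11-201) had 5 reads in all, and its annotated last exon has 916 bases against 4312 in BCL2L11-204. The intervals were wide, 35.4 to 87.9% in the 100:0 library, and the slope of the BIM-EL share was 2.67 percentage points (two-sided exact permutation p = 0.867, 0.867 adjusted over 3 genes). The segment absent from BIM-L lies 4506 bases from the 3′ end of BCL2L11-204. Size selection was for fragments near 2 kb per the labels' protocols, and whether reads reached the segments of MCL1, BCL2L1 and BCL2L11 was not tested, because the tables give no read lengths.

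**Figure D3:**
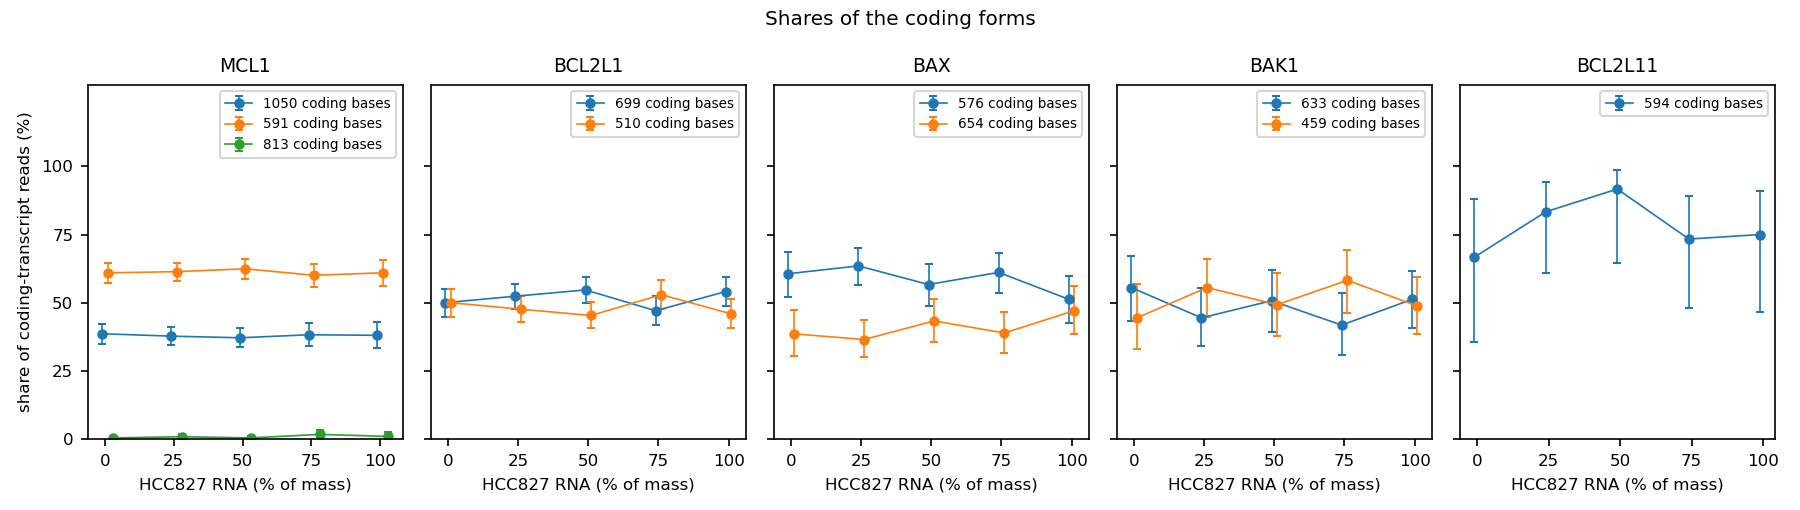
Share of reads on coding transcripts (y axis, percent) held by each form of MCL1, BCL2L1, BAX, BAK1 and BCL2L11 against the HCC827 share of RNA mass in percent (x axis), 1 library per point, with 95% Wilson intervals. The MCL1 lines stay near 61 and 38% across the series, and the points of BCL2L11 rest on 9 to 18 reads.

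Among the effectors, BAX-alpha (BAX-202, 192 codons) took 60.6, 63.5, 56.7, 61.1 and 51.2% of BAX coding reads, and BAX-beta, with the retained last intron, 38.6, 36.5, 43.3, 38.9 and 47.1%. The pure HCC827 library had the smallest BAX-alpha share, with an interval of 42.4 to 60.0% that overlapped those of the other 4 libraries. The retained BAX segment lies 267 bases from the 3′ end. For BAK1, the form with the 20-base exon took 44.4, 55.6, 49.3, 58.2 and 48.8% of 63, 81, 69, 67 and 84 reads, and 51.4% over all libraries, with no order along the series. The last exon of that form has 1361 bases, against 1356 in the form without the 20-base exon.

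BH3-only genes other than BCL2L11 varied in how many forms they used. Of reads on coding transcripts, 1 form of 504 coding bases took 99.9% in BAD, and the 162-base form (54 codons) took 94.8% in PMAIP1. In BBC3, a transcript with a retained intron (BBC3-206) had 5, 12, 24, 18 and 14 reads. It was the leading one, with 32.9% of all BBC3 reads, coding or not. BID reads were spread over forms of 297, 723 and 585 coding bases, with 74, 49 and 27 reads.

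Usage of transcripts along the series was tested with diffSpliceDGE of edgeR. Of 7 members with at least 2 tested transcripts (BCL2L1, MCL1, BAX, BAK1, BBC3, PMAIP1 and BAD), 0 passed at an adjusted Simes p under 0.05, beside 0.402% of 7455 genes (30 genes). None of the 7 had an unadjusted p under 0.05, and the F test of the same tool also called 0. The Simes p was 0.871 for BCL2L1 and 0.847 for MCL1 (edgeR adjusted p = 1 for each). BCL2L2, BCL2L11 and BID had fewer than 2 tested transcripts.

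Of 47 other genes of the apoptosis pathway, 44 had enough reads to test, and 16 rose and 10 fell by the edgeR quasi-likelihood test, 59.1% in either direction beside 46.2% of all tested genes. Their median slope was 0.17. Of the other BCL2 family genes, 5 of 8 tested rose and 1 fell. BMF, a BH3-only gene, had 5.89, 25.9, 61.1, 79.7 and 99.3 CPM, in order along the series, and was 16.9-fold higher in pure HCC827 (10.7 to 28.0). Its slope was 3.15 ± 0.76 (edgeR quasi-likelihood adjusted p = 0.0479), below the log2 ratio of 4.07 between the pure libraries. The SE and p of BMF also hold the bend of a mixture on the log scale, whose part was not tested. Without the 75:25 library, the 25:75 library or the filter on low counts the edgeR quasi-likelihood adjusted p of BMF was 0.144, 0.122 and 0.105. With library totals in place of TMM its slope was 2.74 (edgeR quasi-likelihood adjusted p = 0.0602). BMF passed in all other alternatives, with an adjusted p of 3.2e-12 by the DESeq2 Wald test and 3.8e-05 by limma-voom. Without the 100:0 library its slope was 2.33 (edgeR quasi-likelihood adjusted p = 3.3e-06). HRK, also BH3-only, fell by 1.59 ± 0.54 (edgeR quasi-likelihood adjusted p = 0.0183) from 30 reads in the 100:0 library to 5 in the 0:100 library, and did not pass without either of them (adjusted p = 0.125 and 0.217). BCL2, the founding guard, was not tested, with 9, 7, 4, 4 and 0 reads, and BCL2A1 had 3 to 11 reads a library and BCL2L10 0 to 5.

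Downstream of the pores, 6 of 13 genes of the apoptosome, caspase and mitochondrial list rose and 2 fell. HTRA2, a mitochondrial protease that blocks inhibitors of apoptosis once released, rose by 1.64 ± 0.23 (edgeR quasi-likelihood adjusted p = 3.158e-06), from 47 reads in the 100:0 library to 129 in the 0:100 library. CYCS, which encodes cytochrome c, had 328, 269, 233, 201 and 136 CPM, in order along the series, and fell by 1.16 ± 0.12 (edgeR quasi-likelihood adjusted p = 6.095e-08). Among the inhibitors of apoptosis 2 of 5 rose and 2 fell. BIRC3 rose by 1.66 ± 0.39 (edgeR quasi-likelihood adjusted p = 0.00141) but did not pass without the pure NCI-H1975 library (slope 0.95, adjusted p = 0.0849). BIRC2 fell by 0.63 ± 0.25 (edgeR quasi-likelihood adjusted p = 0.0420) and lost its call without any 1 of the 5 libraries, with adjusted p from 0.0542 to 0.175.

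The death receptor arm had 1 of 8 genes that rose and none that fell. This was CFLAR, which encodes the caspase-8 inhibitor c-FLIP, with a slope of 0.46 ± 0.17 (edgeR quasi-likelihood adjusted p = 0.0291). With library totals in place of TMM it was 0.05 (adjusted p = 0.816), and without the 100:0 or the 0:100 library the adjusted p was 0.430 and 0.0562. Of 10 regulators of the family, 2 rose and 5 fell. CDKN1A, which encodes the cell cycle inhibitor p21, had 101, 69.3, 65.4, 48.6 and 25.7 CPM and fell by 1.67 ± 0.20 (edgeR quasi-likelihood adjusted p = 7.427e-07).

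**Figure D4:**
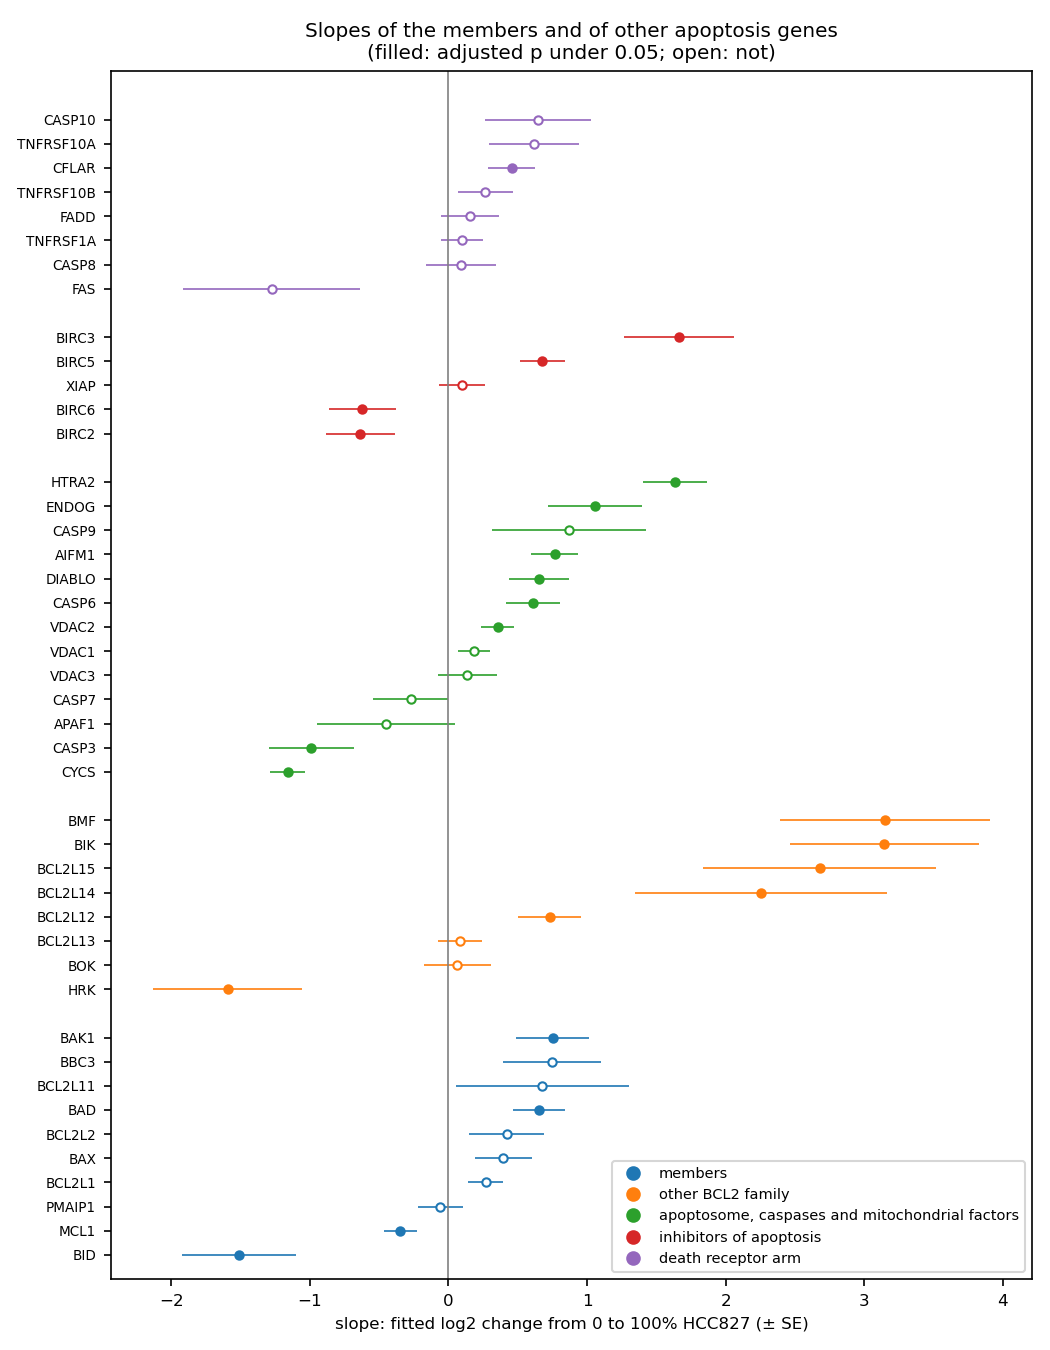
Slope of each of the 10 members and of the tested genes of the other apoptosis lists, without the regulators (x axis, fitted log2 change from 0 to 100% HCC827, with bars of 1 SE), grouped by list, with filled points for an adjusted p under 0.05 by the edgeR quasi-likelihood test and open points otherwise. Members lie between -1.51 and 0.75, and BMF is the highest of all plotted genes at 3.15.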

How the data were processed

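The authors deposited 1 table per library of estimated counts of reads per transcript, with no scaling. Per the submitters' processing notes, minimap2 2.24 and Salmon 1.9.0 were used with build GRCh38. The annotation release, counting settings and strand are not given in the sources used here. All but 2 values were whole, and counts were rounded; 161 identifiers listed a second time were summed. GENCODE v44 matched 224076 of 227751 human transcripts, with 98.6% of human reads, and 3675 were unmatched. Sequins (160) and unmatched transcripts were left out of the gene and transcript tests. Their reads remain in the library totals that entered the scaling and in the mean transcript length of each library. Reads were not divided by transcript length.

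Gene sums with at least 10 reads in at least 2 libraries were scaled by TMM and tested with the edgeR 4.0.16 quasi-likelihood test (R 4.3.3) with the HCC827 mass fraction as covariate, with Benjamini-Hochberg adjustment over all genes and a threshold of 0.05. The SE of a slope came from the slope and its F statistic. Ratios of pure libraries carry exact conditional intervals. Transcript usage was tested with diffSpliceDGE, and both tests were tested on simulated data. Alternatives included DESeq2 1.42.0 and limma 3.58.1. Segments are stretches of 1 annotated form absent from its partner form.

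The members, the other lists and the tests were chosen with earlier results of these data known. All 10 members were named. From each other list came the gene with the largest slope in each direction past the threshold, together with overlapping or readthrough genes and the 3 genes most correlated with the member of largest slope. Marker, BCL2, BCL2A1 and BCL2L10 values were added outside that rule. A gene chosen by that rule is not reported here.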

Additional observations from a re-analysis of the deposited data

How the results depend on the processing

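No paired analysis was possible because each ratio had 1 library and the labels give no replicate numbers that join libraries. Of the 10 members, 4 passed by the edgeR quasi-likelihood test; 2 passed by the DESeq2 Wald test (BID and BAD) and 2 with the length trend removed (BAK1 and BID). Leaving out 1 library at a time gave 0 to 4, with 0 without the 0:100 library. Over all genes, 46.2% passed in the main fit, 35.5% by the DESeq2 Wald test and 45.8% with the length trend removed. The share was 51.7% under library totals and 31.7 to 45.5% with 1 library left out, lowest without the 0:100 library. Scaling by library totals moved the median slope of all genes from -0.03 to -0.44, and 3 members then passed, all falling (MCL1, BID and PMAIP1), against 2 rising and 2 falling under TMM. Over all genes it took the share of rising calls from 51.3% to 25.7%. Of the other apoptosis genes, 26 passed (16 rose, 10 fell), 14 by the DESeq2 Wald test (10 rose, 4 fell), 19 under totals (6 rose, 13 fell), and 15 to 22 with 1 library left out, 15 without the 0:100 library. The number of members lower in pure HCC827 went from 3 to 6 under totals. Slopes that reversed were BCL2L1 (-0.14) and BAX (-0.0098) under totals and PMAIP1 with 1 library left out (from -0.15 to 0.0059, the latter without the 75:25 library), none past the threshold; the slope of the 591-base share of MCL1 turned to 0.16 percentage points with all transcripts in the denominator. Causes were not tested. The length trend, the readthrough sum and the fit without robust shrinkage were chosen after seeing the data. BID kept its direction in every alternative and its call in all but that without the 0:100 library. No isoform test of a member passed under any alternative run. With 9 to 18 reads a library, a difference in BCL2L11 within the interval of its ratio was not detectable at this depth.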
